A study of Zygosaccharomyces parabailii with 12 samples.

Results

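The control fermentations of Zygosaccharomyces parabailii ATCC60483 were compared between 18 h and 42 h, the change with time that this hybrid yeast showed when no lactic acid was added. Z. parabailii is an interspecies hybrid used in research on acid tolerance, and most of its genes are present as an A copy, from Z. bailii, and a B copy, from another Zygosaccharomyces species; the 2 copies of a gene are called homeologs, and N marks genes that were given neither letter. The libraries were chosen by their labels, 5 of the 12 in the series: replicates 1 and 3 of the control at 18 h, in the exponential phase, and replicates 1, 2 and 3 of the control at 42 h, after the diauxic shift. Replicate 2 at 18 h held 4596 counts and was left out, as the authors had done. All cultures were grown at pH 3 in Verduyn medium, a defined medium with glucose as the carbon source, in bioreactors with limited oxygen, and the 6 lactic acid libraries (40 g/L lactic acid added, 3 at 18 h and 3 at 42 h) entered the fit and served as a reference only. Nothing in the sources says that the replicates came from separate fermentations, so the p-values measure the spread between these libraries, which may be technical.

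A yeast growing on glucose ferments much of it to ethanol and represses the genes for respiration and for the use of other carbon sources. At the diauxic shift glucose runs out, and the cells turn to the ethanol, glycerol and organic acids left in the medium, which they oxidise in mitochondria and from which they rebuild sugars by gluconeogenesis and the glyoxylate cycle. In S. cerevisiae, the well studied relative from which the gene names and roles below are taken, this change comes with a slowing of ribosome production and with stress and storage programs.

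The 5 libraries held between 8967267 and 17505293 counts in genes. Across 9683 genes with enough counts to be tested, log2 values of CPM (read counts scaled to a common library size, with TMM factors) correlated at 0.9904 between the 18 h libraries, at 0.9924 to 0.9954 among the 42 h libraries and at 0.7473 to 0.7787 between the times. The 42 h libraries held more counts from the mitochondrial genome, 1.617% to 2.389% against 0.935% and 1.385%, and the part of this difference in the results below was not tested. The growth phase in the labels was compared with marker genes: of 15 tested genes that S. cerevisiae represses on glucose, 13 rose and none fell, with a median log2 fold change of 3.78, and of 9 tested genes of dividing cells, 5 fell and none rose, with a median of -1.14. The markers that did not pass were both copies of IDP2/IDP3, a cytosolic or peroxisomal isocitrate dehydrogenase, among the first, and both copies of MCM3 and one each of MCM6 and MCM7, of the replication helicase, among the second.

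A gene was called changed when its adjusted p was below 0.05 and its change at least 2-fold. All 42 h libraries lay above both 18 h libraries for 38.8% of the genes tested and below them for 46.2%, the share against which separate groups of a single gene are to be read. In control cultures 1507 genes rose from 18 h to 42 h, 15.6% of the genes tested, and 1830 fell, 18.9%. The rises reached much further than the falls. At least 8-fold changes were found for 230 genes that rose and 21 that fell, at least 32-fold changes for 60 and 0, and the median change of the called genes was 3.10-fold upward and to 0.361 of the 18 h level downward. The balance of the calls depended on the scaling. TMM set the median log2 change of all tested genes at -0.10 and gave 45.2% rises among the calls. Scaling by library totals set it at 0.13 and gave 1965 rises and 1312 falls, 60.0% rises; all 1507 rises were called under both, and 1312 falls were. Changes below are on the TMM scale and should be read against that shift of the median.

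The genes that rose most included those for the uptake and first use of glycerol and a small protein of respiratory growth. STL1 encodes the proton-coupled glycerol importer of the plasma membrane in S. cerevisiae, and its B homeolog (K00540_B, chromosome 11, 97483 to 99282 in assembly ASM198439v2) was at 4.88 and 4.85 CPM at 18 h and at 2124, 2095 and 1813 CPM at 42 h. Every 42 h library stood far above both 18 h libraries, a log2 fold change of 8.69 ± 0.43 (SE) with an adjusted p of 1.74e-08. The A homeolog (C00630_A) went from 7.27 and 5.80 CPM to 1609, 1563 and 1348 CPM, a log2 fold change of 7.85 ± 0.57. GUT1 (B02500_A, chromosome 2), the glycerol kinase that traps imported glycerol, rose from 13.6 and 18.8 CPM to 2226, 2172 and 2105 CPM for B02500_A (log2 fold change 7.06 ± 0.69). Its B homeolog G04130_B rose to a like extent, with a log2 fold change of 6.83 ± 0.61. RGI1/RGI2, named in S. cerevisiae for its induction in respiratory growth, stood at 8.35 and 7.39 CPM at 18 h and at 1243, 1232 and 1119.99 CPM at 42 h for B01570_A. The groups were wide apart for its B homeolog as well, with 12.6 and 12.3 CPM against 1218, 1176 and 1082 CPM for G05060_B, and the log2 fold changes were 7.25 ± 0.36 and 6.54 ± 0.25.

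Most of the other leading rises had no S. cerevisiae name in the annotation used. I02380_B (chromosome 9, 505970 to 508054) went from 12.6 and 15.4 CPM to 3161, 3275 and 2973 CPM, and O02350_A, of the same length, from 15.1 and 16.9 CPM to 3027, 3073 and 2750.0 CPM. F05940_B and N00430_A, also equal in length to each other, rose by log2 fold changes of 8.11 ± 0.65 and 7.70 ± 0.67. I01870 rose from 1.57 and 1.36 CPM to 402, 461 and 434 CPM. These genes shared no homeolog entry, so whether equal lengths mark near-identical copies was not tested. The authors left reads with several equally good matches out of these counts. N04380_A and its homeolog D01120_N, each 312 bases long, had log2 fold changes of 7.63 ± 0.27 and 5.95 ± 0.21. I05810_A, annotated as Ddi3p, a cyanamide hydratase of S. cerevisiae, went from 1.07 and 0.946 CPM to 155, 176 and 162 CPM. A00220_B, with fewer counts, went from 0.331 and 0.414 CPM to 60.6, 60.7 and 68.3 CPM. The leading rises were chosen among genes whose 42 h libraries all lay above both 18 h libraries, so that separation adds no support to them.

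**Figure D1:**
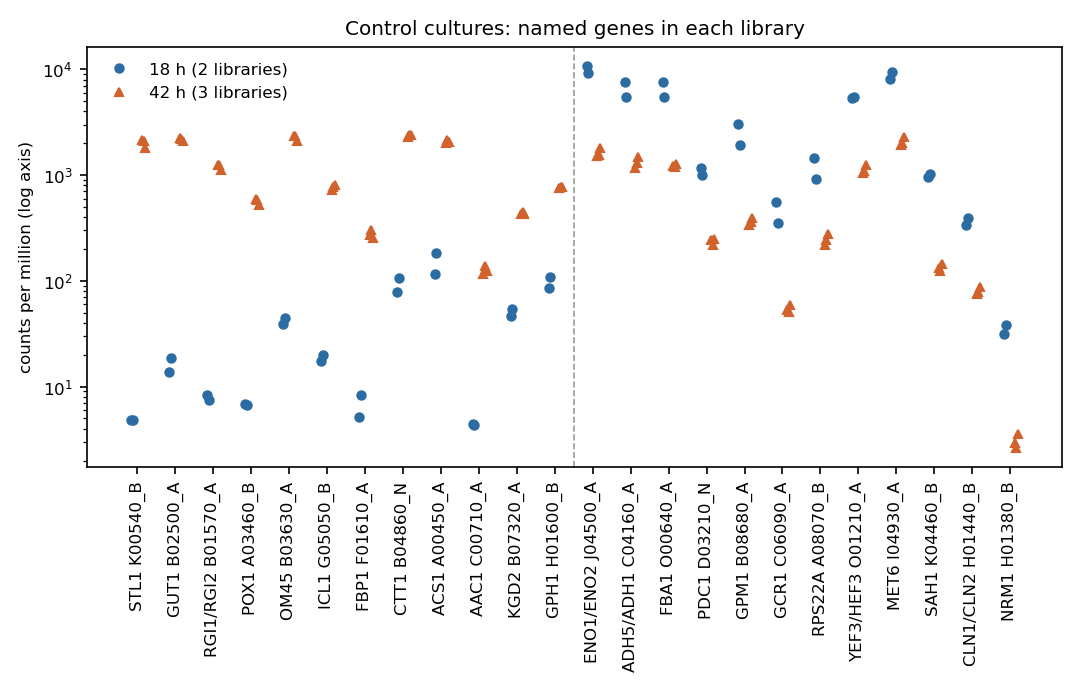
CPM, the scaled read counts, on a log axis of 24 named genes in each control library, with 18 h libraries as circles and 42 h libraries as triangles; genes that rose stand left of the dashed line and genes that fell right of it. No gene drawn has a 42 h library between its 18 h libraries, and STL1 (K00540_B) spans the widest range, from 4.85 to 2124 CPM. The leading rises and falls among them were chosen from genes without overlap of libraries.

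Glycolysis and ethanol formation fell as a group. Of 23 tested members named in the annotation, 16 fell, 7 did not pass and none rose, against 18.9% falls over all genes, and the median log2 fold change was -2.19. They took 6.24% and 4.91% of all counts in the 18 h libraries, and 1.5%, 1.55% and 1.67% later. ENO1/ENO2 J04500_A, enolase, which makes phosphoenolpyruvate, went from 10716 and 9128 CPM to 1516, 1547 and 1817 CPM (log2 fold change -2.61 ± 0.16, adjusted p = 6.18e-08). Both 18 h libraries lay above all 42 h libraries, and the B homeolog A08220_B fell by 2.38 on the log2 scale. Phosphoglycerate mutase followed, with GPM1 A08660_B at 3597 and 2184 CPM and then 326, 344 and 377 CPM, a log2 fold change of -3.05 ± 0.26, and B08680_A at -2.77. Pyruvate kinase, the last step of glycolysis, fell in both of its copies in this list, CDC19/PYK2 A00760_A from 547 and 334 CPM to 44.9, 56.0 and 66.9 CPM and F00120_A by 2.89 on the log2 scale.

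The same direction held for aldolase and for the steps from pyruvate to ethanol. FBA1 O00640_A, aldolase, went from 7654 and 5521 CPM to 1216, 1197 and 1271 CPM, and its homeolog I00690_B fell by 2.07. Pyruvate decarboxylase, which commits pyruvate to fermentation, fell in both PDC1 genes, D03210_N (-2.18 ± 0.14) and F01930_N (-2.19 ± 0.16). The ethanol-forming alcohol dehydrogenase ADH5/ADH1 C04160_A stood at 7547 and 5459.8 CPM at 18 h and 1163, 1287 and 1476 CPM at 42 h, and D00840_B fell by 2.53. GCR1, the transcriptional activator of glycolytic genes, was among the 12 largest falls of genes with at least 10 CPM at 18 h: C06090_A went from 555 and 354 CPM to 52.6, 50.4 and 58.5 CPM (log2 fold change -3.08 ± 0.25), and L02760_B had a log2 fold change of -2.99. The steps that did not pass were at the top of the pathway or were other regulators. PGI1, glucose-6-phosphate isomerase, had log2 fold changes of 0.20 (A04580_B) and 0.13 (E04320_A), hexokinase HXK1/HXK2 of -0.78 (D07250_A) and -0.51 (K04820_B), the regulator TYE7 of -0.53 (A00780_B) and -0.44 (F00140_A), and GCR2 of 0.53 (B00770_N). Names outside chromosomes 1 and 2 came mostly from the study's sheets of lactic acid-responsive genes, chosen on these libraries, so the counts of this and the following lists are not independent of them; among members named from chromosomes 1 and 2 or their homeologs, 6 of 11 fell and none rose.

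Hexose transporters did not move together. HXT5/HXT3 A01890_B rose from 27.1 and 40.9 CPM to 127, 129 and 107 CPM (log2 fold change 1.82 ± 0.22), while its A homeolog C07520_A, with 16.5 and 21.3 CPM and then 42.6, 37.4 and 30.6 CPM, reached 0.96 and stayed below 2-fold. HXT7/HXT4, high-affinity carriers, did not pass in A01900_B (-0.62) or in C07500_A (-0.11). MTH1/STD1, a repressor of hexose transporter genes when glucose is low, rose in B07400_A, from 25.5 and 33.5 CPM to 87.7, 93.4 and 96.6 CPM, and in H02580_B, with a log2 fold change of 1.15. Of 10 tested members of the list 5 rose and none fell, and 2 of those 5 are the STL1 copies.

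Genes for gluconeogenesis and the glyoxylate cycle rose, with 17 of 32 tested members up and 2 down and a median log2 fold change of 1.88. FBP1, fructose-1,6-bisphosphatase, which reverses a glycolytic step, was low at 18 h: F01610_A was at 5.13 and 8.28 CPM and then at 274, 302 and 256 CPM (log2 fold change 5.35 ± 0.27), and the second copy D02890_A at 8.02 and 7.98 CPM and then 227, 245 and 210.1 CPM. ICL1, isocitrate lyase, the entry to the glyoxylate cycle, rose from 17.6 and 19.9 CPM to 722, 778 and 809 CPM in G05050_B and from 15.3 and 15.2 CPM to 583, 605 and 672 CPM in B01580_A. The 2 homeologs had log2 fold changes of 5.36 ± 0.24 and 5.34 ± 0.21. MLS1, malate synthase, the next enzyme of the cycle, rose in N01030_A (3.81 ± 0.51) and F05340_B (3.54 ± 0.46). ACS1 A00450_A, the acetyl-CoA synthetase used on nonfermentable carbon, went from 116 and 185 CPM to 1987, 2153 and 2064 CPM. All of these had their 42 h libraries above the 18 h libraries, as had 38.8% of all genes tested.

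The exceptions in this list concerned aldehyde dehydrogenase and anaplerosis. ALD5, a mitochondrial aldehyde dehydrogenase, fell in both homeologs, B01440_A from 297 and 519 CPM to 58.0, 58.9 and 61.9 CPM (-2.78 ± 0.28) and G05190_B by 2.58 on the log2 scale. Pyruvate carboxylase PYC2/PYC1 E01600_A, which feeds oxaloacetate from pyruvate, was at 708 and 793 CPM and then at 744, 685 and 723 CPM, with overlapping groups. Among members named from chromosomes 1 and 2 or their homeologs, 9 of 16 rose and 2 fell.

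Regulators tied to glucose repression and the diauxic shift rose in 14 of 33 tested members and fell in 3. XBP1, a repressor induced by stress and starvation, rose most, E05650_A from 57.2 and 51.7 CPM to 960.4, 989.7 and 934 CPM (log2 fold change 4.14 ± 0.34) and A03250_B by 3.9997 on the log2 scale. CAT8, an activator of gluconeogenic genes, rose in G03120_B from 47.1 and 58.3 CPM to 266, 282 and 243 CPM, and in B03510_A by 1.96. Nicotinamidase PNC1, a stress-induced enzyme of NAD salvage, rose from 26.9 and 27.1 CPM to 416, 436 and 380.4 CPM in B02200_A. SNF1, the kinase that relieves glucose repression, passed with small changes, log2 fold changes of 1.04 (J01450_A) and 1.36 (M01590_B), and MIG1, its repressor target, did not pass (0.55 for B02140_A and 0.44 for G04490_B). SCH9, a growth-promoting kinase, fell in B09840_A, from 211 and 212 CPM to 90.6, 88.7 and 88.0 CPM, and had a log2 fold change of -0.63 in A09890_B, which was not called.

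Genes for the mitochondrial oxidation of carbon rose at the level of the TCA cycle, the respiratory chain and ATP synthase. Of 34 tested TCA cycle genes 20 rose and 4 fell, of 65 genes for the respiratory chain and its assembly 28 rose and 3 fell, and of 33 genes for ATP synthase and its carriers 22 rose and 1 fell. The median log2 fold changes were 1.18, 0.80 and 1.27. KGD2, of the 2-oxoglutarate dehydrogenase complex, led the TCA cycle with B07320_A at 46.4 and 53.8 CPM and then 424, 452 and 429.7 CPM, a log2 fold change of 3.12 ± 0.19, and H02670_B at 2.80. SDH2, the iron-sulfur subunit of succinate dehydrogenase, rose from 81.8 and 78.2 CPM to 563, 591 and 569 CPM in B02550_A and by 2.75 in G04080_B. Citrate synthase CIT2/CIT1 O01520_A, the first step of the cycle, rose from 254 and 224 CPM to 1097, 1162 and 1133 CPM.

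Falls in the TCA cycle list reached a log2 fold change of -2.46. The carrier ODC2/ODC1, which moves oxodicarboxylic acids across the inner mitochondrial membrane, fell by less in both copies, at -1.20 (B05640_A, not called under scaling by library totals) and -1.26 (H04350_B).

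In the respiratory chain the internal and external NADH dehydrogenases rose most among members with values given here; these are single-subunit enzymes that take the place of complex I. NDE2/NDE1 A01390_B went from 36.6 and 60.0 CPM to 396, 386 and 346 CPM (2.96 ± 0.43), and NDI1 G03030_B from 62.4 and 67.0 CPM to 398, 406 and 358 CPM (2.58 ± 0.36). Structural subunits of complexes III and IV rose by less, with log2 fold changes such as 1.34 for QCR2 K00240_B, 1.45 for QCR7 P00350_A, 1.37 for COX4 O03510_A and 1.51 for COX7 G03490_B. Assembly factors and ubiquinone synthesis genes mostly did not pass, and the 3 falls were COQ2, of ubiquinone synthesis, in E06870_A (-1.70) and H00350_B (-1.52), and PET111 B03160_A (-1.09), a translational activator of a mitochondrial transcript. The count leaned on names from the study's response sheets: among members named from chromosomes 1 and 2 or their homeologs, 10 of 39 rose and 1 fell, with a median log2 fold change of 0.13.

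AAC1, an isoform of the ADP/ATP carrier of the inner membrane, rose most in the ATP synthase list, C00710_A from 4.46 and 4.32 CPM to 116, 137 and 124 CPM (log2 fold change 4.84 ± 0.16) and K00620_B from 5.87 and 5.74 CPM to 147, 160.5 and 154 CPM (4.73 ± 0.20). INH1/STF1 B01120_A, an inhibitor of ATP hydrolysis by the synthase, rose from 37.4 and 35.4 CPM to 309, 291 and 287 CPM. Of 13 tested protein-coding genes of the mitochondrial genome itself, 1 rose, ZPARMT034 (log2 fold change 1.33), and 1 fell, ZPARMT0021, which overlaps its neighbours, so its reads are uncertain. Genes for mitochondrial ribosomal proteins fell in 11 of 68, 16.2% against 18.9% over all genes, and rose in 1, RRG9 B00590_A (1.05), a gene named for respiratory growth and not a ribosomal subunit, and scaling by library totals left 2 falls and 2 rises.

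Fatty acid oxidation was one of the groups with the largest single changes. POX1, the acyl-CoA oxidase that starts peroxisomal beta-oxidation, rose from 6.86 and 6.68 CPM to 587, 576 and 517 CPM in A03460_B (log2 fold change 6.37 ± 0.38) and from 6.37 and 7.04 CPM to 534, 505 and 449.7 CPM in E05430_A (6.20 ± 0.24). SPS19, a peroxisomal dienoyl-CoA reductase for unsaturated fatty acids, went from 0.579 and 1.66 CPM to 121, 110.3 and 103 CPM in G05880_B, and B00740_A rose by 6.21 on the log2 scale. PXA1 B05810_A, a subunit of the peroxisomal importer of long fatty acids, rose from 22.2 and 33.5 CPM to 894, 775 and 693 CPM. FOX2, the bifunctional enzyme of the pathway, rose in D04620_A (3.30) and K02210_B (3.38), and ANT1, the peroxisomal ATP carrier, in B08190_A (2.62) and H01760_B (3.21). The tested PEX genes, which build peroxisomes, had log2 fold changes between -0.36 and 0.98, and none was called on the TMM scale. Over the list 12 of 32 rose and 2 fell, both of them INP2, a peroxisome inheritance factor, and scaling by library totals gave 17 rises.

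Storage carbohydrate genes rose in 10 of 17 tested members, and none fell. SGA1, a glucoamylase that degrades glycogen, led with A03270_B at 70.2 and 73.6 CPM and then 793, 843 and 775 CPM (log2 fold change 3.48 ± 0.39). Glycogen phosphorylase GPH1 H01600_B rose from 85.9 and 109.6 CPM to 748, 777 and 763 CPM and debranching enzyme GDB1 D00540_B from 225 and 283 CPM to 1784, 1794 and 1663 CPM. Glycogen synthase GSY1/GSY2 rose along with these degrading enzymes, by 2.78 (I01050_N) and 2.22 (O01000_N). For trehalose, TSL1/TPS3, a regulatory subunit of the synthase, rose in B03200_A (1.84), and the catalytic TPS1 did not pass at 0.78 (B04500_B) and 0.90 (G02070_A).

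Of 51 tested heat shock and general stress genes 20 rose, 39.2% against 15.6% over all genes. Falls were found for 10, 19.6%, a share near the 18.9% over all genes. Among members named from chromosomes 1 and 2 or their homeologs, 14 of 27 rose and 3 fell. OM45, an outer mitochondrial membrane protein, rose most, B03630_A from 38.7 and 44.8 CPM to 2315, 2329 and 2081 CPM (log2 fold change 5.75 ± 0.26) and G02990_B by 5.41. FMP16 F02430_B, a mitochondrial protein, rose from 15.8 and 14.6 CPM to 687, 699 and 657 CPM, and the cytosolic catalase CTT1 B04860_N from 77.5 and 106 CPM to 2269, 2409 and 2374 CPM. The stress-induced Hsp70 genes SSA3/SSA4 rose, H02250_B from 33.3 and 43.2 CPM to 507, 513 and 490.2 CPM and B07710_A by 3.59.

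The 10 falls were in SSB1/SSB2, ZUO1, SSA2, SSE2/SSE1, PHM7 and GPP2/GPP1. SSB1/SSB2 G05960_B, the Hsp70 that binds nascent chains at the ribosome, fell from 2749.6 and 2713 CPM to 746, 733 and 806 CPM (log2 fold change -1.84 ± 0.17), and its ribosome-bound partner ZUO1 fell in J05320_A (-2.27) and A06520_B (-2.38). SSA2, a constitutive Hsp70, fell in D04220_A from 2504 and 2643 CPM to 1222, 1268 and 1331 CPM, close to the 2-fold limit at -1.01 ± 0.20, and in L05000_B at -1.17 ± 0.17, and neither was called under scaling by library totals (-0.78 and -0.94). Hsp90 (HSC82/HSP82 A03620_N) and the mitochondrial HSP60 (J05510_A and L01470_B) did not pass, with log2 fold changes of -0.46, -0.10 and 0.23. GPP2/GPP1 B01620_N, a glycerol phosphatase and not a chaperone, fell by 2.26 on the log2 scale.

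Among 39 tested genes of oxidative stress defence 15 rose, 38.5% against 15.6% over all genes, and 2 fell, 5.13% against 18.9%. For members named from chromosomes 1 and 2 or their homeologs, 8 of 25 rose and 2 fell, with a median log2 fold change of 0.07. SOD2, the mitochondrial superoxide dismutase, rose in A06330_B from 57.6 and 50.9 CPM to 457, 479 and 501 CPM (3.14 ± 0.14) and in C04820_A by 2.59. CCP1, the peroxidase of the intermembrane space, rose in I03080_B (2.12) and O03050_A (2.15), and the peroxiredoxin AHP1 in D02100_B (2.10) and F00850_A (2.02). OYE2, an NADPH oxidoreductase, was the gene that fell, in J04460_A from 613 and 644 CPM to 137, 161 and 171 CPM and in A08180_B by 2.38. Glutathione reductase GLR1 did not pass in A08920_B (-0.19) or B08940_B (-0.14).

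**Figure D2:**
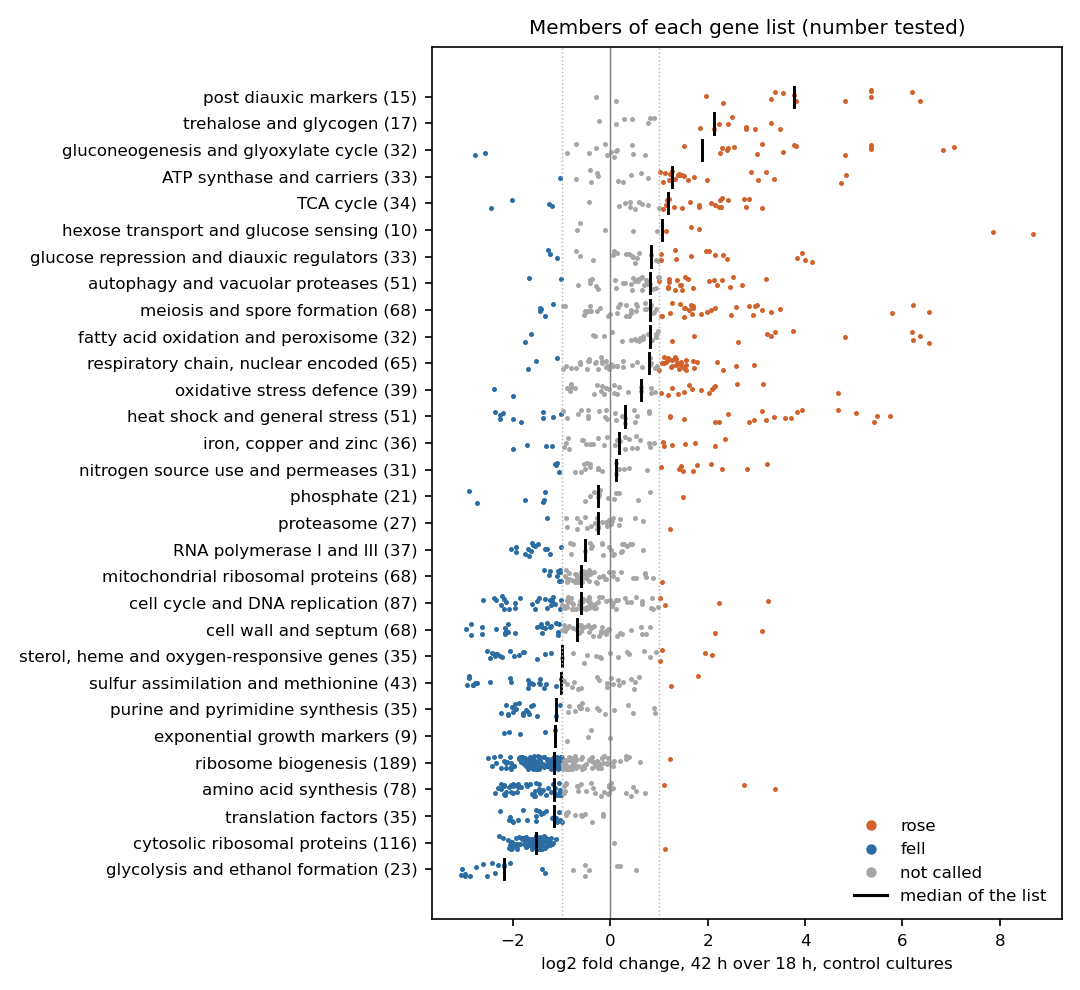
Log2 fold change from 18 h to 42 h in control cultures of every tested member of each gene list, with the number tested in parentheses, dotted lines at 2-fold and a black bar at the list median. The lists run from a median of 3.78 for the post diauxic markers to -2.19 for glycolysis and ethanol formation, and members on the far side of their list, such as the ribosomal protein gene at 1.12, can be seen one by one.

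Genes for cytosolic ribosomal proteins fell nearly without exception. Of 116 tested, 114 fell and 1 rose, with a median log2 fold change of -1.53, and their share of all counts went from 10.6% and 8.98% to 3.65%, 3.97% and 4.39%. RPS22A, a small-subunit protein, had the largest fall, A08070_B from 1461 and 927 CPM to 216, 241 and 275 CPM (-2.29 ± 0.22), and its homeolog J04360_A fell by 2.10. The gene that rose, K01640_B, encodes the second copy of the same protein, RPS22B, and went from 38.1 and 34.3 CPM to 73.5, 79.4 and 83.4 CPM (1.12 ± 0.11). Its A homeolog C01720_A was the other exception, at 55.0 and 43.5 CPM and then 48.7, 50.8 and 56.5 CPM, with overlapping groups. All 79 members named from chromosomes 1 and 2 or their homeologs fell.

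The machinery that makes ribosomes and translates on them fell with them. Ribosome biogenesis genes fell in 117 of 189 tested members and rose in 1, with a median log2 fold change of -1.15. NSR1 B02340_A, a nucleolar protein of pre-rRNA processing, went from 518 and 504 CPM to 87.3, 93.5 and 105 CPM (-2.43 ± 0.17), and RLI1 A01710_B, needed for ribosome export and recycling, from 293 and 289 CPM to 50.2, 51.5 and 50.9 CPM (-2.52 ± 0.14). BMT2 C04210_A, a 25S rRNA methyltransferase, was the one that rose, from 16.3 and 14.5 CPM to 32.7, 36.6 and 39.1 CPM. Of 37 tested subunits of RNA polymerases I and III and their factors 15 fell, 40.5% against 18.9% over all genes, and none rose. RPA190 F00180_A, the largest subunit of polymerase I, went from 503 and 549 CPM to 131, 122 and 132 CPM. The list moved less among members named from chromosomes 1 and 2 or their homeologs. Of these, 8 of 28 fell, with a median log2 fold change of -0.27, or -0.03 under scaling by library totals.

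Translation factors fell in 25 of 35 and rose in none, and 15 fell when libraries were scaled by their totals. YEF3/HEF3 O01210_A, the fungal elongation factor 3, stood at 5399.6 and 5430.1 CPM at 18 h and at 1042, 1091 and 1234 CPM at 42 h, a log2 fold change of -2.27 ± 0.17. The termination factor SUP45 fell in A05700_B (-2.03) and C04190_A (-2.00). Ribosome biogenesis moved likewise with the scaling, to 80 falls under library totals.

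Amino acid synthesis fell in 47 of 78 tested genes and rose in 3. LYS12 B02970_N, homoisocitrate dehydrogenase of lysine synthesis, went from 372 and 334 CPM to 62.6, 67.8 and 74.8 CPM (-2.37 ± 0.14), and ILV3 L04710_B, a shared step of branched-chain amino acids, from 574 and 468 CPM to 102, 107 and 106 CPM (-2.31 ± 0.12). The genes that rose work in breakdown. ARO10, a decarboxylase of the Ehrlich pathway of amino acid catabolism, rose in B09280_A from 7.94 and 7.16 CPM to 82.1, 78.0 and 74.2 CPM and in A09320_B by 2.75, and GDH2 B00940_A, the NAD-dependent glutamate dehydrogenase, rose by 1.11.

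Sulfur assimilation and methionine metabolism fell in 22 of 43 and rose in 2. MET6 I04930_A, methionine synthase, went from 8056 and 9322 CPM to 1927, 2024 and 2294 CPM, and SAH1 K04460_B, which clears S-adenosylhomocysteine, from 967 and 1031 CPM to 131, 123 and 144 CPM (-2.91 ± 0.13). STR3, cystathionine beta-lyase, rose in I03520_B (1.25) and O03490_A (1.79). Purine and pyrimidine synthesis fell in 19 of 35 and rose in none, ADE4 F01220_A, the first committed step of purine synthesis, going from 251 and 262 CPM to 55.8, 54.4 and 64.0 CPM.

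**Figure D3:**
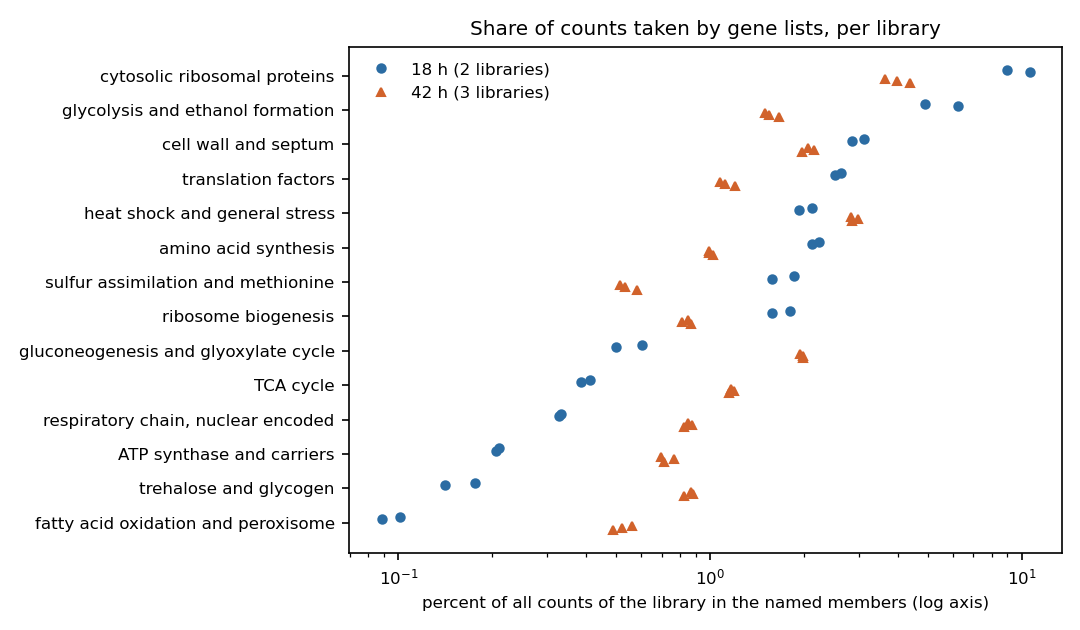
Share of all counts of a library, in percent on a log axis, taken by the named members of 14 gene lists, with 18 h libraries as circles and 42 h libraries as triangles. Each list has its 18 h libraries apart from its 42 h libraries; the cytosolic ribosomal proteins went from 8.98% and 10.6% to between 3.65% and 4.39%, and fatty acid oxidation from 0.0884% and 0.101% to between 0.489% and 0.560%.

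Genes of autophagy and the vacuole rose. Of 51 tested 21 rose and 2 fell, and among the 45 named from chromosomes 1 and 2 or their homeologs 21 rose and none fell. ATG8 B07740_A, the ubiquitin-like protein of the autophagosome membrane, went from 33.6 and 35.6 CPM to 168, 209 and 189 CPM (2.45 ± 0.17), and its homeolog H02220_B rose by 2.52. ATG19 C04180_A, a receptor of the selective Cvt pathway, rose from 32.6 and 32.9 CPM to 312, 307 and 279 CPM, and the vacuolar protease PRB1/YSP3 B01730_A from 266 and 263 CPM to 1203, 1166 and 1111 CPM. The pair that fell was APE1, a vacuolar aminopeptidase carried by that pathway, with J02560_A at 97.1 and 112 CPM and then 33.7, 32.0 and 32.5 CPM and M02720_B at -1.01, which was not called under scaling by library totals (-0.78). The proteasome showed no such rise: of 27 tested subunits and assembly factors 1 rose, polyubiquitin UBI4 (B02580_N, 1.23 ± 0.26), and 1 fell, the scaffold ECM29 (G04060_B, -1.30 ± 0.10).

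Nitrogen source genes rose in 10 of 31, 32.3% against 15.6% over all genes, and fell in 4, 12.9% against 18.9%. None fell under scaling by library totals. Among members named from chromosomes 1 and 2 or their homeologs, 5 of 24 rose, 20.8%, and 2 fell, with a median log2 fold change of -0.21. DAL2 N04060_A, allantoicase, rose from 1.90 and 2.25 CPM to 16.8, 20.6 and 21.6 CPM, and AGP2 G01970_A, a plasma membrane permease and regulator of carnitine uptake, from 12.8 and 19.5 CPM to 132, 104 and 107 CPM. The 4 falls, between -1.06 and -1.14, included both copies of GZF3/DAL80, a repressor of nitrogen catabolic genes (C06120_A and L02770_B).

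Cell cycle and DNA replication genes fell in 26 of 87, 29.9% against 18.9% over all genes, and rose in 4, while 57 were not called, and the rises became 8 under library totals. The 4 rises were both copies of HHO1, APC1 L00350_B (1.12), of the anaphase-promoting complex, and MBP1 N02800_A (1.01), of the G1 transcription factor MBF. The G1 cyclin CLN1/CLN2 H01440_B went from 337 and 394 CPM to 75.7, 78.7 and 87.0 CPM (-2.18 ± 0.13), the mitotic cyclin CLB1/CLB2 B08330_N from 85.3 and 83.5 CPM to 18.9, 22.0 and 18.96 CPM, and the replication clamp POL30 G02670_B from 145 and 129 CPM to 23.3, 27.6 and 27.4 CPM. HHO1 H04500_B, the linker histone, rose from 18.7 and 25.0 CPM to 183, 216 and 221 CPM (3.24 ± 0.24). NRM1, a corepressor of G1 transcription, was another of the 12 largest falls with at least 10 CPM, H01380_B going from 31.4 and 38.6 CPM to 2.90, 2.64 and 3.55 CPM.

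Cell wall and septum genes fell in 26 of 68, 38.2% against 18.9% over all genes, and rose in 2, while 40 were not called. SKN1/KRE6 J04010_N, of beta-glucan synthesis, went from 211 and 257 CPM to 26.9, 29.5 and 33.4 CPM (-2.97 ± 0.13), and the wall mannoproteins CIS3 I03130_N from 1076 and 1154 CPM to 148, 146 and 167 CPM and CCW12 D02090_N from 4012 and 3904 CPM to 800.3, 963 and 898 CPM. The genes that rose were both SPS100/YGP1, a secreted glycoprotein that S. cerevisiae induces on nutrient limitation, with L00510_N at 101 and 79.9 CPM and then 788, 813 and 760.3 CPM and E00870_A at 2.15.

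Sterol, heme and other oxygen-responsive genes fell in 17 of 35 and rose in 4. ERG2 B08580_A, a sterol isomerase, went from 137 and 107 CPM to 20.9, 18.7 and 23.4 CPM, and ERG1, squalene epoxidase, fell in A05050_B and E03850_A, both at -2.36. ERG24, a sterol reductase of the same pathway, went the other way, from 14.8 and 16.2 CPM to 75.0, 59.9 and 63.3 CPM in A02940_B (2.09 ± 0.20) and with a log2 fold change of 1.94 in C03790_A. HEM13 K01100_B, an oxygen-dependent step of heme synthesis, differed between the 18 h libraries, with 436 and 198 CPM, and lay at 55.2, 60.3 and 56.0 CPM at 42 h.

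Of 36 iron, copper and zinc genes 7 rose, 19.4% against 15.6% over all genes, and 4 fell, 11.1% against 18.9%, shares near those of all genes. The scaffold of iron-sulfur cluster assembly, ISU2/ISU1, rose in H04320_B from 52.0 and 74.6 CPM to 357, 306 and 308 CPM, and the manganese transporter SMF1 fell in C03420_A from 97.5 and 95.5 CPM to 23.7, 22.0 and 26.4 CPM. CUP2/HAA1 P01650_A, a regulator that in S. cerevisiae responds to weak acids or copper, rose from 148 and 154 CPM to 763, 650.3 and 593 CPM without added lactic acid. Phosphate genes fell in 6 of 21, 28.6% against 18.9% over all genes, and rose in PHO92 B09380_A (1.49) alone. The list median was -0.25 on the log2 scale. Among members named from chromosomes 1 and 2 or their homeologs, 4 of 17 fell, 23.5%. The falls were led by SPL2 E00920_A, a phosphate-controlled regulator, at 21.8 and 19.3 CPM and then 2.14, 2.53 and 3.55 CPM.

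Genes named for meiosis and spore formation rose in 30 of 68 and fell in 5. LDS2 D01760_B, of the spore wall, went from 0.413 and 0.237 CPM to 17.6, 17.6 and 17.9 CPM (5.79 ± 0.32), HOP1 G05270_B, of the meiotic chromosome axis, from 5.70 and 4.49 CPM to 44.6, 39.6 and 37.9 CPM, and the meiotic cohesin REC8 H05190_B from 2.397 and 1.77 CPM to 16.5, 17.0 and 14.7 CPM. The kinase IME2, which drives entry into meiosis, did not pass in J00800_A (0.53) or M00960_B (0.32). Some members do other work: SPS19 and SGA1, described above for fatty acids and glycogen, and SPS100/YGP1 are in this list by their names from S. cerevisiae.

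The largest falls were smaller than the largest rises. G00240_N went from 11.1 and 9.23 CPM to 0.484, 0.406 and 0.771 CPM, a log2 fold change of -4.15 ± 0.29, the largest among called genes with at least 10 CPM. The paper describes it as a homolog of the iron siderophore transporter gene FIT2 and lists it as lactic acid specific. Here its mean at 18 h was 10.2 CPM in control and 12.2 CPM with lactic acid. Its log2 fold change with lactic acid was -4.21. L00520_B, at 327 and 398 CPM and then 25.0, 25.0 and 26.8 CPM, and its homeolog E00880_A had log2 fold changes of -3.82 and -3.44. Both carried no S. cerevisiae name. YOR271C, a mitochondrial carrier-like protein, fell in B06830_A from 164 and 147 CPM to 12.3, 14.1 and 14.96 CPM and had a log2 fold change of -3.181 in H03160_B. P02700_N and H06160_N, each 765 bases long and without a name, fell alike, by 3.37 and 3.35 on the log2 scale. If their sequences are close, reads that match both equally well were left out of these counts. M03930_B, H06340 and H00310_B completed the 12, with log2 fold changes of -3.78, -3.35 and -3.24.

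The A and B copies of a pair never went opposite ways by the call. Of 2757 pairs with both copies tested, both rose in 295, both fell in 450, one rose and the other was not called in 182, one fell and the other was not called in 224, and neither copy was called in 1606. These are the pairs in the annotation used here, which does not cover all homeologs of the genome. The log2 fold changes of the A and B copies correlated at 0.933 across pairs, which are not independent replicates. The ratio of A to B counts within each library was tested as well, in the 2759 pairs whose summed counts of A and B reached 10 in each library. It shifted toward A in 489 pairs, 17.7%, and toward B in 430, 15.6%, at an adjusted p below 0.05 (limma on log2 A over B). The shifts were small, with a median absolute change of 0.22 on the log2 scale, and 48 toward A and 45 toward B were at least 2-fold. Leaving out replicate 1 at 18 h gave 272 and 258 pairs and leaving out replicate 3 gave 304 and 272, in fits where the lone 18 h library is assumed to vary like the libraries of the other groups.

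The largest shift toward A was found for A00160_A, annotated as a probable glycolate oxidase, with 546 and 785 counts at 18 h and 8508, 5890 and 8495 at 42 h, against 2 to 5 counts of its B copy A10100_B in every library. Here the pair shifted because A rose and B was barely read at either time. C00950_A and K00860_B diverged in the other sense: A had a log2 fold change of 0.69, which was not called, and B fell by 1.45. SUE1, named in S. cerevisiae for the turnover of cytochrome c, rose in both copies but more in C05930_A (3.96 ± 0.40) than in L02600_B (2.15 ± 0.37). ACF2, an endoglucanase, held its A copy J00470_A at 26.9 and 31.0 CPM and then 38.3, 38.3 and 33.8 CPM while the B copy M00600_B fell from 46.6 and 45.2 CPM to 16.9, 13.9 and 17.4 CPM.

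Toward B, F06080_B rose from 1.98 and 1.48 CPM to 8.71, 7.10 and 9.02 CPM while N00300_A stayed at 5.13 and 4.199 CPM and then 3.73, 4.26 and 3.55 CPM, with overlapping groups. K02590_B rose from 14.7 and 17.0 CPM to 53.6, 57.7 and 48.3 CPM beside D05030_A, which lay between 16.6 and 21.5 CPM in all 5 libraries. SLZ1, a gene of meiotic mRNA methylation, rose in G05820_B (1.41 ± 0.27) and had a log2 fold change of -0.74 in B00810_A, which was not called.

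**Figure D4:**
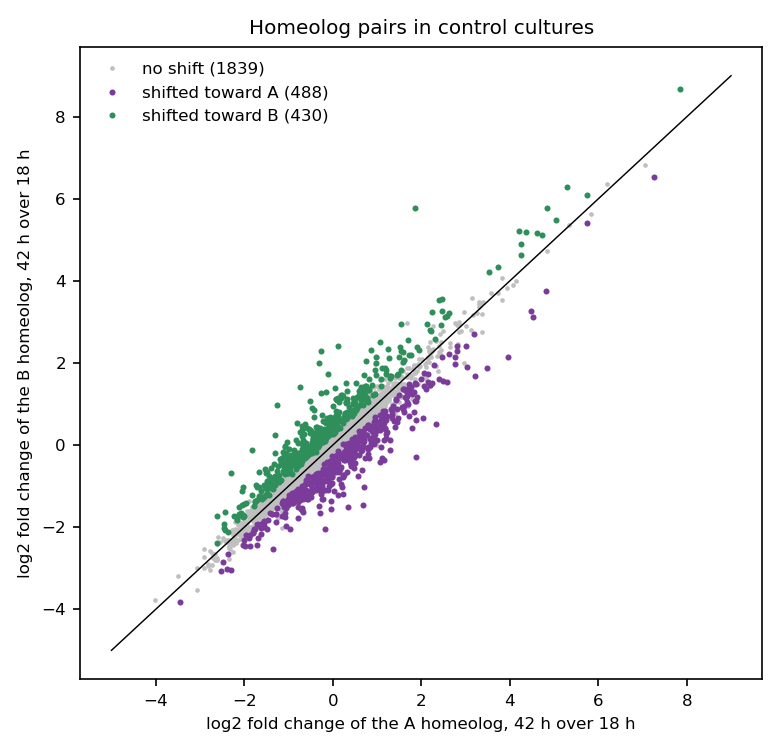
Log2 fold change from 18 h to 42 h of the A homeolog (x axis) against that of the B homeolog (y axis) in control cultures, each point a pair, with the line of equal change; purple and green points are pairs whose A to B ratio shifted. The points follow the line from -4 to above 7 with a correlation of 0.933, and no pair has its copies called in opposite directions on the TMM scale.

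Duplicated genes whose copies are identical over their full length were counted apart by the authors and tested on those counts, with CPM taken over them. Reads of identical copies cannot be told apart, so the values of a copy are a composite signal of its whole set. Of 230 tested, 45 rose, 19.6%, and 41 fell, 17.8%, with every copy of a set counted, so the calls are not independent. Short genes of 144 bases on chromosomes 2 and 7 rose most, B04395_A from 1004.9 and 799.6 to 35135, 29930 and 34551 CPM and 36.8-fold in the fit. GSM1, a regulator named for glucose starvation, rose as a set, with its copies F02020_A and D03290_A listed at 10.1-fold and 12.5-fold. THS1, threonyl-tRNA synthetase, and SER2, of serine synthesis, fell to 0.194 (G05370_A) and 0.196 (D03240_B) of their 18 h levels. DLD1 and DLD2, D-lactate dehydrogenases, were not called, with log2 fold changes of 0.42 and 0.48 for N05010_A and I04780_A and of -0.82 and -0.72 for G05430_N and B01190_N.

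The change with time was set beside that of the lactic acid cultures, which have their own 18 h libraries. The log2 fold changes correlated at 0.831 across the 9683 genes, which are not independent replicates. In both conditions 1237 genes rose and 1338 fell, while 263 rose and 474 fell in control and were not called with lactic acid. Opposite calls were found for 7 genes that rose in control and fell with lactic acid, and for 18 that fell in control and rose with lactic acid. A test of the difference itself called 894 genes whose change was higher in control, 9.23% of those tested, and 1497 whose change was lower, 15.5%. This split turned with the scaling: library totals gave 2603 higher and 613 lower, and 894 and 613 were called under both.

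All 6 tested genes annotated as Fdh1p, formate dehydrogenase, rose in control, and the change of each was higher than with lactic acid; 3 of them were named for the size of that difference. N02280_N went from 3.06 and 3.84 CPM to 284, 282 and 182 CPM in control and had means of 98.6 and 90.3 CPM with lactic acid, a difference of 6.28 ± 0.51 on the log2 scale. F04070_N, of the same length, had a log2 fold change of 4.54 in control and -2.53 with lactic acid, and I01900_B of 4.84 and -1.55. At 18 h F04070_N had a mean of 36.8 CPM with lactic acid and 1.81 CPM in control, and I01900_B 279 and 3.44 CPM. At 42 h the means were 6.39 and 42.8 CPM for F04070_N and 94.9 and 99.99 CPM for I01900_B, in the same order. The paper describes the whole family as strongly upregulated by lactic acid at its earlier time point and lists P02220_N as lactic acid specific. Any reads that match N02280_N and F04070_N equally well were left out of these counts. The others were O01850_A, with 4.59 in control and 0.35 with lactic acid, and the sparsely read H05680_N (2.34 and -1.44) and P02220_N (1.1 and -0.91), which stayed below 3 CPM in control; P02220_N was not called without either 18 h library (1.04 and 1.16) or without replicate 1 at 42 h (0.95). B09945_N, 171 bases long, had 6.86 and 2.96 CPM and then 75.2, 89.4 and 70.6 CPM in control and means of 3.84 and 0.461 CPM with lactic acid.

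The fifth gene by size of the difference, D07410, rested on 1 library. It was at 91.8 and 171 CPM at 18 h and at 7326, 217 and 441 CPM at 42 h, so replicate 1 at 42 h stood apart. Its log2 fold change of 4.34 ± 1.34 in control became 1.32 without that library and was no longer called, nor was it called without either 18 h library or in the 5 control libraries alone (adjusted p = 0.175).

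In the other direction, control cultures rose less or fell where lactic acid cultures rose. J05790_A, annotated as related to a synaptic vesicle transporter, rose from 16.3 and 11.9 CPM to 264, 267 and 247 CPM in control (4.21 ± 0.34) and from a mean of 4.32 to 1947 CPM with lactic acid (8.81). IGD1 A09670_B, an inhibitor of glycogen debranching in S. cerevisiae, had log2 fold changes of 5.64 and 9.72. G04440_N, uncharacterised, had log2 fold changes of 3.44 and 7.73. SSP1 D02790_B, a sporulation gene, was not called in control (0.72) and had a log2 fold change of 4.86 with lactic acid. SSA2 D04220_A fell in control, and its mean went from 361 to 2769.7 CPM with lactic acid, a difference of -3.95 ± 0.27.

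Glycolysis showed the difference as a group: the median log2 fold change of its 23 genes was -2.19 in control and -0.12 with lactic acid, and 19 had a lower change in control. At 18 h ENO1/ENO2 J04500_A already had a mean of 1782 CPM with lactic acid, against 10716 and 9128 CPM in control. Cytosolic ribosomal proteins showed the reverse order, with medians of -1.53 in control and -3.21 with lactic acid and a higher change in control for 98 of 116.

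**Figure D5:**
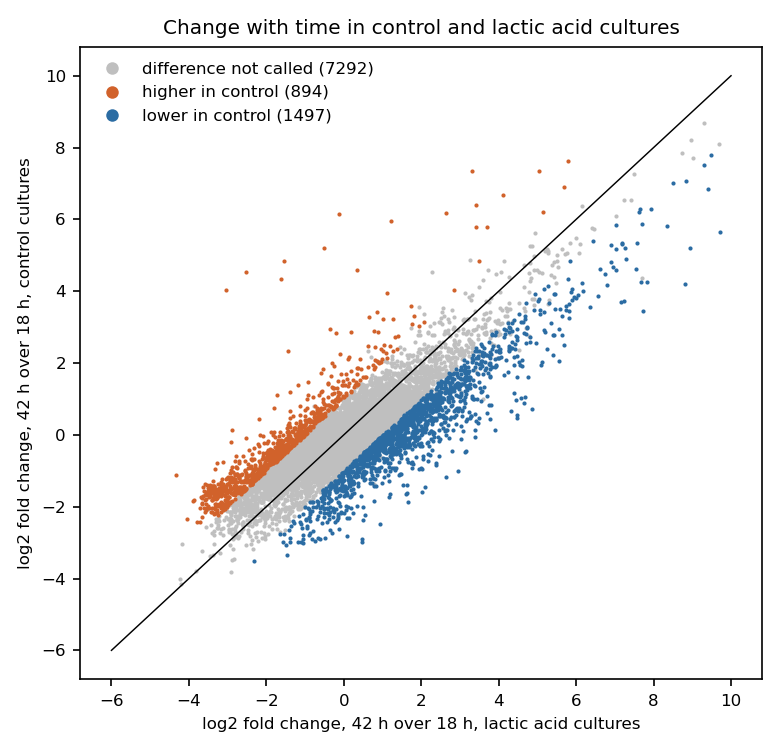
Log2 fold change from 18 h to 42 h with lactic acid (x axis) against that in control cultures (y axis) for 9683 genes, with the line of equal change. Orange points (894) changed more upward in control and blue points (1497) less, and most points lie along the line, with a correlation of 0.831.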

How the data were processed

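RNA from cultures with and without lactic acid, taken after 18 h or 42 h, was sequenced as 100-nt paired reads after rRNA depletion. The authors mapped reads with Bowtie 1.1.2 and deposited raw counts per gene from HTSeq 0.6.0, with duplicated genes of identical sequence also counted in a table of their own. Rows not annotated as protein coding, pseudogenes and a plasmid entry, held 0.14% to 0.344% of the control counts and stayed out of library sizes. Library depth is given in the report; it sets the precision of genes with few counts.

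Counts of 11 libraries in 4 groups were fitted in R 4.3.3 with edgeR 4.0.16 (robust quasi-likelihood test, TMM, Benjamini-Hochberg adjustment), after removing genes below 1 CPM unless 3 or more control libraries, or 3 or more lactic acid libraries, reached it. A call needed an adjusted p below 0.05 and a 2-fold change. CPM values are scaled by TMM. The ratio of homeologs was tested with limma 3.58.1 on log2 of A over B with 0.5 added to each. Control replicate 2 at 18 h was left out for its depth. Alternatives included DESeq2 1.42.0, limma-voom, other scalings and filters, and leaving out each library. The scripts were tested on simulated data.

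S. cerevisiae names were available for 4016 of the 9683 tested genes, from the annotation of chromosomes 1 and 2, their homeologs and the study's sheets of responsive or duplicated genes. Coordinates are those of assembly ASM198439v2. Named were the 12 called genes with the largest change in each direction without overlap of libraries and with at least 10 CPM in the higher group, up to 4 members of each of 28 lists in each direction and the 3 with the highest counts, their homeologs, the 6 pairs that shifted most in each direction with at least 50 counts, DLD1, DLD2 and the leading duplicated genes, and the 5 largest differences from lactic acid in each direction. For space some were left out, and 1 result is not reported here. A further 44 genes were named after their values were seen, to show other steps of a pathway or members of a family. The members, lists and rules were chosen with earlier results of these data known.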

Additional observations from a re-analysis of the deposited data

Results flagged for a closer look

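The change with time in control was compared with that in lactic acid cultures for the 223 genes named in the report, with a test against a 2-fold minimum under both scalings (edgeR's glmTreat). It passed for 38 of them. Values below are the control change minus the lactic acid change on the log2 scale, on the TMM scale.

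Control changed more upward for B09945_N (7.07) and for the Fdh1p genes F04070_N (7.07), I01900_B (6.39), N02280_N (6.28), O01850_A (4.24) and H05680_N (3.78). The same held for D01120_N (4.73) and its homeolog N04380_A (1.84), for I05810_A (4.04), for HXT5/HXT3 A01890_B (2.35) and for DAL2 N04060_A (1.94). Both RPS22B homeologs were among them, K01640_B at 2.85 and C01720_A at 1.97, the ribosomal protein genes that did not fall in control.

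Control changed more downward, or less upward, for the chaperones SSA2 D04220_A (-3.95) and L05000_B (-3.81), HSP60 J05510_A (-3.14) and L01470_B (-2.80) and HSC82/HSP82 A03620_N (-3.26). In glycolysis the differences were -3.45 and -3.36 for CDC19/PYK2 A00760_A and F00120_A, -2.49 and -2.87 for ENO1/ENO2 J04500_A and A08220_B, -2.36 and -2.52 for PGI1 A04580_B and E04320_A, and -2.40 for ADH5/ADH1 C04160_A. PYC2/PYC1 E01600_A (-2.40) and ICL1 G05050_B (-2.22) rose less in control than with lactic acid or not at all.

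Glycogen genes differed by -3.17 and -2.85 for GSY1/GSY2 O01000_N and I01050_N, by -2.63 for GDB1 D00540_B and by -4.08 for IGD1 A09670_B, all with the smaller rise in control. J05790_A (-4.61), G04440_N (-4.29) and SSP1 D02790_B (-4.14) changed less upward in control as well. HEM13 K01100_B (-3.41), CIS3 I03130_N (-2.38), SAH1 K04460_B (-2.31) and ILV3 L04710_B (-2.17) fell in control with a smaller fall or a rise with lactic acid.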

How the results depend on the processing

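No called gene that the text names changed sign in the control comparison under any alternative run. Requiring a change above 2-fold in the test itself (edgeR's glmTreat) left 975 rises and 1217 falls, and 706 differences from lactic acid (221 higher, 485 lower in control), while dropping the 2-fold minimum gave 3016 and 3783. Library totals in place of TMM gave 2603 higher and 613 lower changes in control, and 26 duplicated genes that fell. Of the homeolog shifts, 48 toward A and 45 toward B were at least 2-fold. Leaving out 1 library at a time gave 1442 to 1514 rises, 1813 to 1864 falls, 1987 to 2736 differences from lactic acid (788 to 1019 higher, 1199 to 1717 lower), 272 to 417 pairs toward A, 258 to 372 toward B, and 40 to 53 duplicated genes that rose and 29 to 41 that fell; where 1 library is left at 18 h, it is assumed to vary like the other groups. Apart from the test against a 2-fold minimum, 15 of the 193 named genes called in control lost their call in at least 1 alternative. Besides D07410 and P02220_N, leaving out 1 library ended the call of RRG9 B00590_A (0.97), UBI4 B02580_N (0.98), MTH1/STD1 H02580_B (0.99), SNF1 J01450_A (0.97) and MBP1 N02800_A (0.90) without 18 h replicate 1, and of PHO92 B09380_A (1.02), SSA2 D04220_A (-0.98) and APE1 M02720_B (-0.92) without 18 h replicate 3; MBP1, SSA2 and APE1 also lost it without other libraries. Rises outnumbered falls, against the main balance, with DESeq2 (52.5% of calls, 1555 falls), RLE size factors (52.5%, 1554 falls), all 12 libraries (1713 to 1523), the 5 control libraries alone (1664 to 1627) and library totals. Same-numbered libraries of 18 h and 42 h deviated together at r = -0.203 in control and at 0.038, -0.114 and 0.164 with lactic acid. With so few libraries these values cannot tell whether the replicate numbers pair the samples. A replicate block gave 1526 rises, 1811 falls, 2365 differences, 440 and 389 pairs, and 44 and 42 duplicated genes. The cause of these differences was not tested. With 2 libraries at 18 h and no separate fermentations named, the spread at 18 h rests on 2 values, and depth limits the genes at few counts.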
